A study of Homo sapiens with 35 samples.

Results

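The clustered histone genes encode the linker histone H1 and the 4 core histones H2A, H2B, H3 and H4. Members were the gene rows of both deposited count tables whose name was H1-1 to H1-6 or H2AC, H2BC, H3C or H4C followed by a number, and that had at least 10 reads in at least 2 of 35 libraries. Of 66 rows with such a name, 45 passed, out of 59428 gene rows in all. They were 4 of 6 H1 genes, 8 of 16 H2A genes, 14 of 17 H2B genes, 9 of 13 H3 genes and 10 of 14 H4 genes. Of the members, 40 lay on chromosome 6 between positions 26021649 and 27893891 and 5 on chromosome 1 between positions 149782689 and 149887411 (hg38). Just inside the threshold were H4C1, H4C2, H1-3, H4C6, H3C7 and H4C11, which had 10 to 22 reads in their deepest library and passed in 2 libraries. H3C1, H2BC3 and H2BC10 passed in 1 library, with at most 10, 18 and 12 reads, and were left out with 18 other rows, of which 4 had 0 reads everywhere.

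The libraries were made from poly(A)-selected RNA of 4 human acute myeloid leukaemia cell lines, U937, THP-1, MOLM-13 and OCI-AML-3. The cells carried a control guide RNA (sgControl), a guide against SUV39H1 labelled as a single knockout (SKO), or guides against SUV39H1 and SUV39H2 labelled as a double knockout (DKO). The series title asks whether these H3K9 methyltransferases hold back an immune response to transposable elements. The groups were sgControl, SKO and DKO of untreated U937, of untreated THP-1 and of U937 treated with TPA, a phorbol ester, with 3 libraries each, MOLM-13 sgControl and SKO with 2 each, and OCI-AML-3 sgControl and DKO with 2 each. No dose or time of TPA is given in the labels, and OCI-AML-3 was grown in MEM α and the other lines in RPMI-1640. THP-1 sgControl and SKO library names carry clone number 1 and untreated U937 DKO names carry clone number 3, so these groups may each be repeats of 1 clone. The labels do not say whether replicates are separate cultures, and p-values therefore reflect library-to-library spread alone, part of which could be technical. Table and treatment cannot be told apart where U937 with and without TPA are compared, because these libraries were deposited in separate tables. In untreated U937 and in THP-1, DKO library names differ from those of sgControl and SKO in a date-like number and in the clone number. What the date-like number stands for is not stated, and neither difference can be told apart from the DKO label.

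Most clustered histone genes are transcribed in S phase, when new nucleosomes are needed for replicated DNA. Their mRNAs usually end in a conserved stem-loop bound by the protein SLBP and carry no poly(A) tail, so a poly(A) library captures them poorly. Some of these genes also make longer transcripts that run past the stem-loop to a poly(A) signal, which have been described in differentiated and non-dividing cells. SUV39H1 and SUV39H2 place trimethylation on lysine 9 of histone H3, the histone that the H3C genes encode.

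The 3′ ends of the members the results turn on are shown first, because the end decides whether a transcript can be captured by its tail. In the GENCODE 29 transcripts, 43 of the 45 members had an entry. Of these, 17 held the stem-loop letters followed by at least 100 more bases, 6 held them nearer the end, and 20 held none in the annotated transcript, many of which stop at the coding end. A poly(A) signal, AATAAA or ATTAAA, lay in the last 40 bases of a transcript of 17 members, and 14 of those were among the 17 with a stem-loop and a longer tail, though not always in the same transcript. The stem-loops below are printed 5′ to 3′ with the 16-letter stem-loop in capitals.
H2BC21: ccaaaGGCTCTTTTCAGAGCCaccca
H2AC6: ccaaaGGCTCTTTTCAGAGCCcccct
H3C10: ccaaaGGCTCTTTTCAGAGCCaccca
H2BC5: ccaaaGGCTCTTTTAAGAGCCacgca
H2BC4: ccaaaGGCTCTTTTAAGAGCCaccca
H2BC13: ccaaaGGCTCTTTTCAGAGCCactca
H4C8: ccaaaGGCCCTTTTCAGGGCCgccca
H4C9: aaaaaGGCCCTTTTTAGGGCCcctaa
The annotated transcript ran on for 1729 bases past the stem-loop in H2BC21, 1128 in H2AC6, 769 in H3C10, 1655 in H4C8, 212 in H4C9 and 116 in H2BC4. It ended 39 bases past it in H2BC5 and 40 bases past it in H2BC13. The letters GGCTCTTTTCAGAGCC were shared by 11 members of the H2A, H2B and H3 classes, while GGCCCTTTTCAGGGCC was held by 4 H4 genes. No stem-loop stood in the annotated transcripts of H1-2, H2BC12, H2AC20 and H4C3.

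The last bases of an annotated transcript that ends with a poly(A) signal are printed next, with the signal in capitals. For H2BC21, H2AC6, H3C10 and H4C8 it is the stem-loop transcript described above, and for H2BC5 both the stem-loop transcript and another of 789 bases without stem-loop letters are shown. For H2BC4 it is a transcript of 659 bases without stem-loop letters, since its stem-loop transcript had no such signal.
H2BC21 end: gctattgttattAATAAAgttaccaattaa
H2AC6 end: ctggcatgaggtAATAAAaggtaatgcaaa
H3C10 end: tttgtatgactaAATAAAatctgtataatc
H2BC5 stem-loop transcript end: acgcatgttttcAATAAAtgagttgtaatc
H2BC5 other transcript end: aaagttataattAATAAAatctgcggagaa
H2BC4 other transcript end: cataaagacaaaATTAAAataactcctagt
H4C8 end: gaattgtgaaaaAATAAAtgtttaagcca
H2BC13 and H4C9 had no such signal in the last 40 bases.

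Counted reads per library ranged from 31985767 to 61178704, of which 836 to 13754 lay in members, so precision is limited for all but the leading genes. Levels are CPM, edgeR's scaling of counts to a common library total, by trimmed mean of M-values over all 35 libraries, and 3 reads, the limit that a count of 0 allows, correspond to 0.0519 to 0.0936 CPM. The SUV39H1 transcript fell in MOLM-13 SKO (log2 fold change -1.90), OCI-AML-3 DKO (-3.35) and TPA-treated U937 DKO (-0.71). It rose in U937 SKO (0.76) and DKO (0.32), THP-1 SKO (1.44) and DKO (0.75) and TPA-treated U937 SKO (0.55). Loss of the protein cannot be read from the transcript level, so the groups are called by their labels throughout. SUV39H2 fell in all 4 DKO comparisons, by 0.33 to 1.11 on the log2 scale. The 12 myeloid markers summed to 744 to 9899 CPM by group, with none at 0 reads in a group. Markers of other cell types stayed low, at 1.07 to 31.7 CPM for 8 lymphoid, 0.512 to 3.63 CPM for 8 erythroid and megakaryocyte and 0.0618 to 19.7 CPM for 8 stromal and epithelial genes.

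Summed over the members, histone transcripts were higher than the control in OCI-AML-3 DKO, TPA-treated U937 DKO, MOLM-13 SKO and THP-1 DKO, lower in TPA-treated U937 SKO, and overlapped the control in the other 3 groups. In OCI-AML-3 the summed level was 64.1 and 62.6 CPM in the sgControl libraries and 279 and 282 CPM in the DKO-labelled libraries, a ratio of means of 4.43. In TPA-treated U937 it was 38.5, 39.5 and 38.5 CPM in sgControl and 143, 153 and 151 CPM in DKO, a ratio of 3.84. Both DKO groups stood clear of their controls, with no overlap. In MOLM-13 it was 53.8 and 55.4 CPM in sgControl and 181 CPM in both SKO libraries, a ratio of 3.31. In THP-1 it was 24.8, 26.3 and 25.7 CPM in sgControl and 38.2, 38.8 and 39.6 CPM in DKO, a ratio of 1.52. These groups did not overlap either. In untreated U937 the groups overlapped their control, with 27.2, 36.9 and 23.9 CPM in sgControl, 22.9, 25.7 and 27.6 CPM in SKO and 29.2, 33.3 and 35.3 CPM in DKO. THP-1 SKO overlapped its control at 29.6, 23.8 and 25.1 CPM. The TPA-treated U937 SKO libraries were below their control at 26.5, 27.8 and 27.5 CPM, a ratio of 0.702. In bulk RNA, fewer cells with a transcript and less transcript per cell cannot be told apart.

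**Figure D1:**
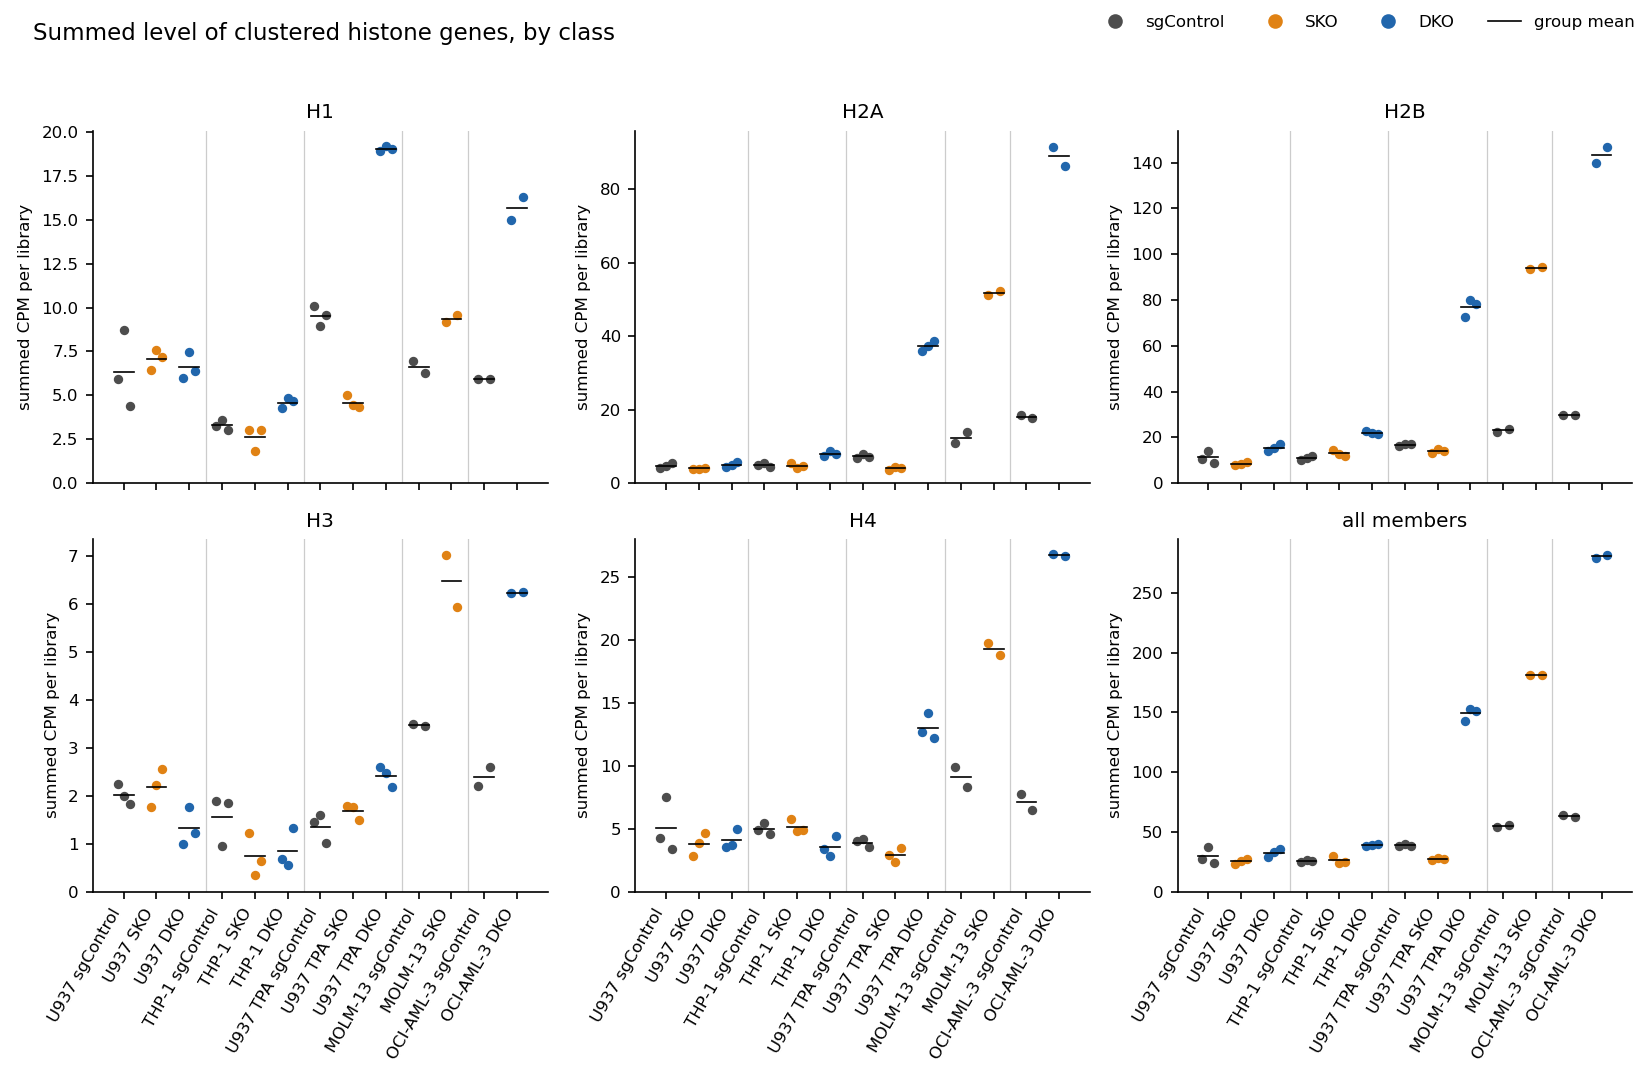
Summed CPM of the members of each histone class (vertical axes) in every library, grouped along the horizontal axis by cell line, treatment and label. The OCI-AML-3 DKO, MOLM-13 SKO and TPA-treated U937 DKO libraries sit highest for H2A and H2B, and the H3 class stays at or below 7.01 CPM in every library.

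The classes did not move alike. H2B held the most reads in every library, from 7.93 CPM in a U937 SKO library to 147 CPM in an OCI-AML-3 DKO library. In OCI-AML-3 the ratio of DKO to sgControl means was 4.91 for H2A, 4.81 for H2B, 3.75 for H4, 2.64 for H1 and 2.59 for H3. In TPA-treated U937 DKO it was 5.12 for H2A, 4.59 for H2B, 3.36 for H4, 2.00 for H1 and 1.79 for H3. H2A and H2B led in both. In MOLM-13 SKO it was 4.19 for H2A, 4.08 for H2B, 2.12 for H4, 1.87 for H3 and 1.41 for H1. In THP-1 DKO the ratio was 2.00 for H2B, 1.64 for H2A, 1.39 for H1 and 0.712 for H4, all without overlap. H3 overlapped its control there (ratio 0.549). Untreated U937 DKO was higher than sgControl for H2B (ratio 1.38) and lower for H3 (ratio 0.659), without overlap in either class but by a narrow margin. For H2B the highest sgControl library was at 14.1 CPM and the lowest DKO library at 14.2 CPM. For H3 the lowest sgControl library was at 1.83 CPM and the highest DKO library at 1.77 CPM. These sums are descriptions and carry no test. Few genes held most of the summed level. In OCI-AML-3 DKO, H2AC6, H2BC12 and H2BC5 held 64.8% of it, against 51.0% for the leading 3 in sgControl, and in MOLM-13 SKO H2BC12, H2AC6 and H4C9 held 67.7%, against 49.0%. In TPA-treated U937, H2AC6, H2BC12 and H1-2 held 59.8% in DKO and 64.4% in sgControl. Members at 1 CPM or more numbered 13 in OCI-AML-3 sgControl and 18 in DKO, 12 and 15 in MOLM-13 sgControl and SKO, and 7 and 12 in TPA-treated U937 sgControl and DKO.

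Each member was tested with edgeR's quasi-likelihood test, with p-values adjusted by Benjamini-Hochberg over all genes of the fit and a threshold of 0.05. Of the 45 members, 38 passed the filter on low counts in at least 1 of the 8 comparisons of a knockout with its control, and H4C1, H4C2, H1-3, H4C6, H3C7, H3C8 and H2BC14 passed in none. A member can pass this filter through the group where it is high, so the counts describe the members tested and no more. In MOLM-13 SKO, 18 of 29 tested members rose (62.1%, against 31.8% of all genes tested) and 2 fell (against 32.2%), with a median log2 fold change of 1.31 against 0.02 over all genes. In OCI-AML-3 DKO, 19 of 36 rose (52.8%, against 24.3%) and 4 fell (against 25.6%), with a median of 1.33 against 0.02. In TPA-treated U937 DKO, 14 of 20 rose (70.0%, against 34.1%) and 2 fell (against 36.5%), with a median of 1.56 against -0.05. In THP-1 DKO, 10 of 23 rose (43.5%, against 31.9%) and 4 fell (against 33.7%), with a median of 0.94 against 0.05. Untreated U937 DKO was mixed: 6 of 23 rose (26.1%, against 33.2%) and 8 fell (34.8%, against 34.5%), both shares near or below those of all genes. The 4 that fell in OCI-AML-3 became 2 without sgControl library 2 or DKO library 1 and 1, H2AC20, without DKO library 2, and the 2 that fell in MOLM-13 became 1, H4C3, without either sgControl library or SKO library 2.

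Across MOLM-13 SKO, OCI-AML-3 DKO, THP-1 DKO and TPA-treated U937 DKO, which share no control libraries, 16 members were tested in all 4. H2BC18, H2BC21, H1-2, H2AC6, H2BC5, H2AC11 and H2BC12 rose in all 4, 43.8% of those 16, against 4.59% of all genes tested in all 4. Of 37 members tested in at least 1, 21 rose in at least 1 (56.8%, against 57.1% of all genes), a share near that of all genes. H2AC20, H4C3, H1-4, H4C5, H2BC9, H2BC13 and H3C11 fell in at least 1 (18.9%, against 51.5%). The number that rose in 1 of the 4 and fell in another was 0 of 37, against 26.1% of all genes. The calls of H2BC21, H1-2, H2AC6, H2BC5 and H2BC12 held in these 4 comparisons under every alternative run, while H2BC18 lost its call in MOLM-13 without SKO library 1 and in TPA-treated U937 without any of 5 of its 6 libraries, and H2AC11 lost its call there without DKO library 1.

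**Figure D2:**
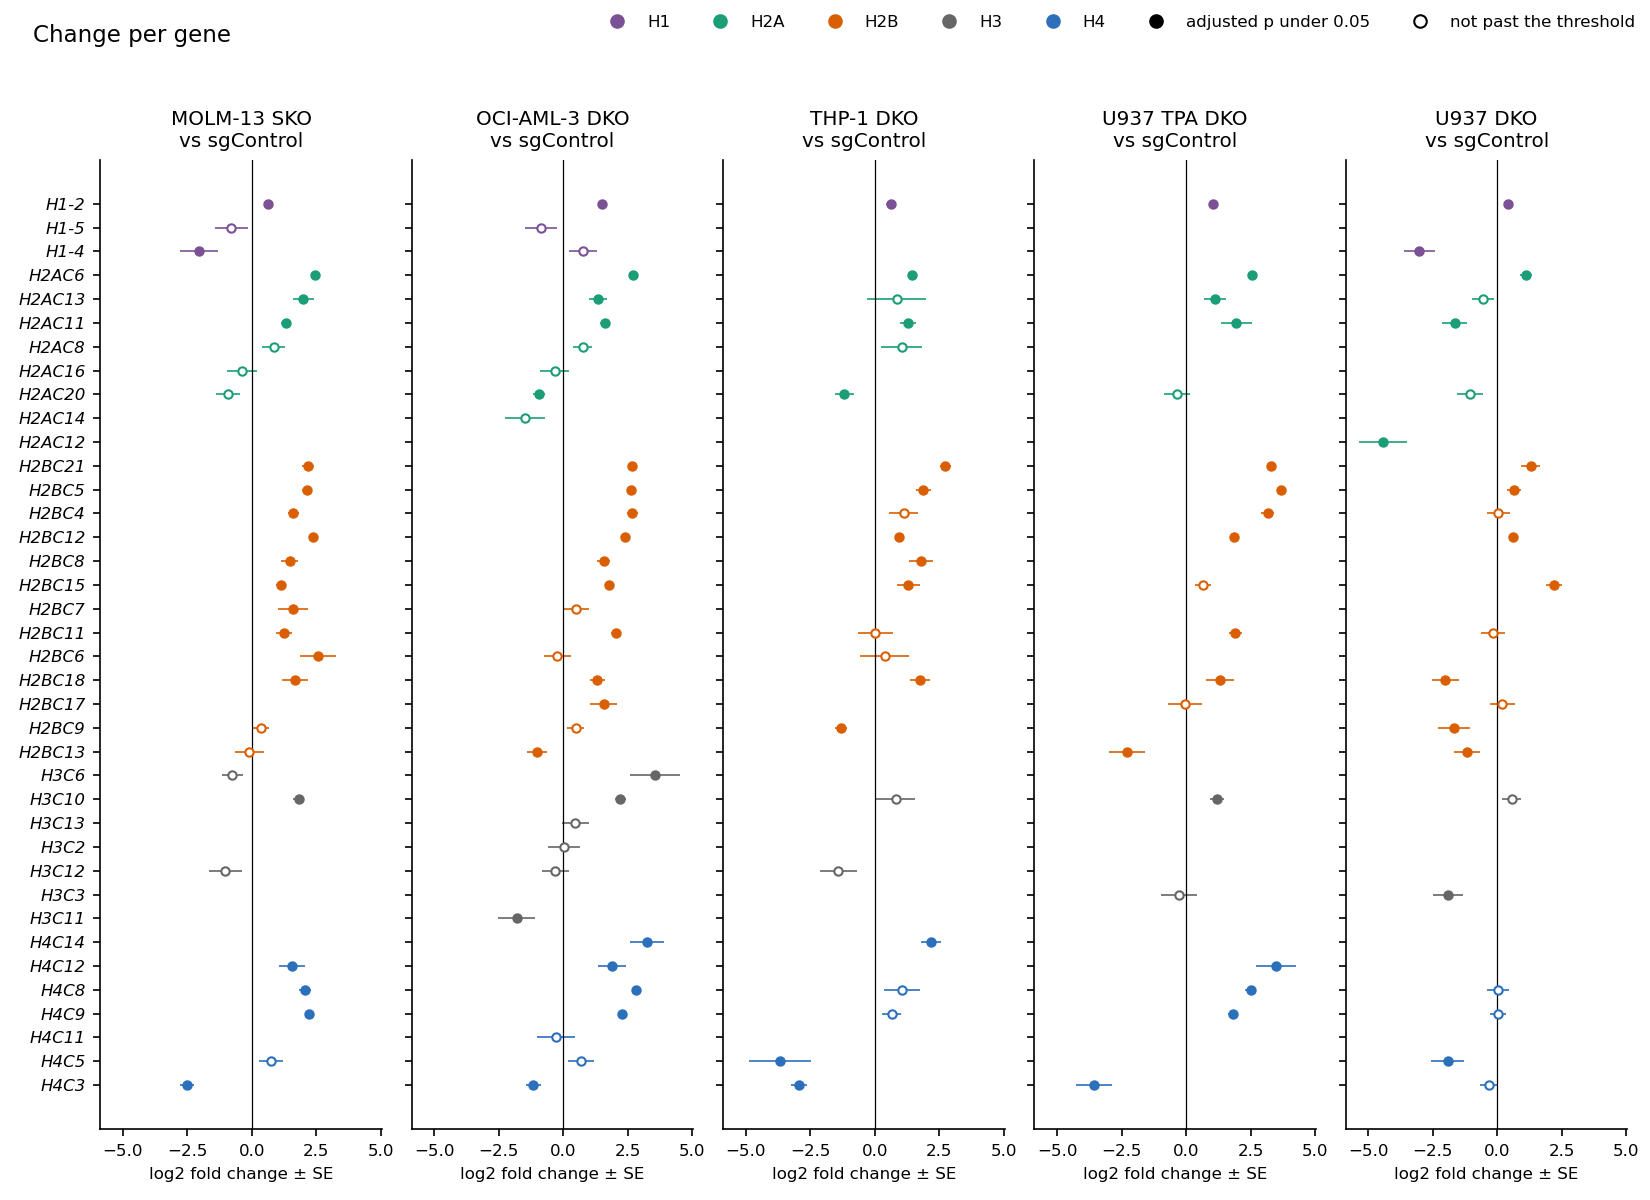
log2 fold change with its standard error (horizontal axis) of the members (vertical axis) in 5 comparisons with sgControl, by edgeR, with filled points at an adjusted p under 0.05. H2BC21, H2AC6, H2BC5 and H2BC12 lie right of 0 in all 5, and H4C3 lies left of 0 in all 5.

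The linker histones bind the DNA between nucleosomes. H1-2 (chr6:26055740-26056470, minus strand, 731 bases of exon) was the H1 gene with the highest level, 9.95 CPM per kb of exon averaged over the 13 groups. In TPA-treated U937 it was at 9.82, 8.78 and 9.39 CPM in sgControl, 4.85, 4.0 and 3.91 CPM in SKO and 18.8, 19.2 and 18.9 CPM in DKO. The 3 groups were fully apart, with SKO lowest and DKO highest. The log2 fold change was -1.13 ± 0.11 (SE) in SKO (edgeR, adjusted p = 7.6e-10) and 1.03 ± 0.09 in DKO (edgeR, adjusted p = 1.5e-10). In OCI-AML-3, H1-2 was at 5.31 and 5.10 CPM in sgControl and 14.3 and 15.5 CPM in DKO, a log2 fold change of 1.52 ± 0.12 (edgeR, adjusted p = 5.8e-16). MOLM-13 SKO was also above its control, at 8.93 and 9.11 CPM against 6.16 and 5.55 CPM (0.64 ± 0.13). THP-1 DKO was above as well, at 4.21, 4.64 and 4.12 CPM against 2.96, 3.23 and 2.72 CPM (0.64 ± 0.19). In untreated U937 the changes were smaller, 0.43 in SKO and 0.41 in DKO. Both calls were lost without sgControl library 3, and the DKO call also without DKO library 2.

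H1-4 (chr6:26156329-26157115, plus strand) was at 0.571, 2.55 and 0.571 CPM in U937 sgControl, 0.349, 0.641 and 0.365 CPM in SKO and 0.227, 0.161 and 0.0582 CPM in DKO. The DKO libraries lay below every control library, while 1 SKO library lay above 2 control libraries. It fell by 3.03 ± 0.60 on the log2 scale in DKO (edgeR, adjusted p = 5.6e-05) and by 1.45 ± 0.51 in SKO. The SKO difference was -0.33 and lost its call without sgControl library 2, the library that is high. In MOLM-13 SKO it fell by 2.06 ± 0.74, from 0.353 and 0.322 CPM to 0.107 and 0.0498 CPM, levels near 3 reads. That call was lost with DESeq2 and with each library left out. H1-5 was at or below 0.51 CPM in every library and passed no test in MOLM-13 (-0.79 ± 0.65) or OCI-AML-3 (-0.87 ± 0.61). H1-3 was at or below 0.291 CPM and was not tested.

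H2A pairs with H2B in the nucleosome. H2AC6 (chr6:26124145-26139116, plus strand, 1668 bases of exon) was the leading H2A gene, at 9.4 CPM per kb averaged over groups. In OCI-AML-3 it was at 12.8 and 11.8 CPM in sgControl and 82.1 and 77.7 CPM in DKO, a log2 fold change of 2.71 ± 0.08 (edgeR, adjusted p = 2.8e-33). Under TPA the U937 libraries were at 6.01, 6.09 and 5.79 CPM in sgControl, 2.28, 2.62 and 2.72 CPM in SKO and 33.8, 35.5 and 36.3 CPM in DKO. As for H1-2, SKO was lowest and DKO highest with no overlap, and the log2 fold changes were -1.23 ± 0.11 and 2.57 ± 0.09 (edgeR, adjusted p = 3e-10 and 4.9e-20). In MOLM-13 it was at 6.46 and 9.47 CPM in sgControl and 42.9 and 44.3 CPM in SKO (2.45 ± 0.09). In THP-1 it was at 2.18, 1.75 and 2.17 CPM in sgControl, 1.98, 1.83 and 2.15 CPM in SKO and 4.78, 6.02 and 4.87 CPM in DKO. Here the SKO libraries overlapped the control and the DKO libraries did not (1.46 ± 0.18). In untreated U937 it was at 1.38, 2.31 and 1.60 CPM in sgControl and 3.47, 4.07 and 4.04 CPM in DKO (1.12 ± 0.23), again without overlap.

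H2AC11 rose in OCI-AML-3 DKO (1.62 ± 0.19), MOLM-13 SKO (1.31 ± 0.19), THP-1 DKO (1.30 ± 0.32) and TPA-treated U937 DKO (1.94 ± 0.60), and fell in untreated U937 DKO (-1.66 ± 0.49). In untreated U937 it was at 0.666, 0.614 and 0.514 CPM in sgControl and 0.114, 0.161 and 0.291 CPM in DKO, and in the TPA-treated cells at 0.0482, 0.258 and 0.212 CPM in sgControl and 1.09, 0.312 and 0.590 CPM in DKO. The directions were opposite and neither pair of groups overlapped, although the call under TPA was lost without DKO library 1. H2AC13 rose in MOLM-13 SKO (2.00 ± 0.39), OCI-AML-3 DKO (1.34 ± 0.35) and TPA-treated U937 DKO (1.12 ± 0.43). Its OCI-AML-3 call was lost without either DKO library, and that under TPA without sgControl library 1 or 3 or DKO library 2 or 3. H2AC12 was at 0.475, 0.283 and 0.685 CPM in U937 sgControl and at 0, 0.0535 and 0 CPM in DKO, at the limit of a few reads, and passed the test there (edgeR, adjusted p = 0.00012).

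H2AC20 (chr1:149886918-149887411, plus strand, 494 bases) moved the other way. In OCI-AML-3 it was at 2.44 and 2.32 CPM in sgControl and 1.16 and 1.27 CPM in DKO (-0.95 ± 0.24, edgeR, adjusted p = 0.00091). In THP-1 it was at 1.39, 2.32 and 1.13 CPM in sgControl and 0.366, 0.856 and 0.80 CPM in DKO (-1.17 ± 0.35). Neither pair of groups overlapped, and the THP-1 call was lost without sgControl library 2. The value in MOLM-13 SKO was -0.92 ± 0.46 and in TPA-treated U937 DKO -0.35 ± 0.51, and neither passed, although the MOLM-13 value passed without SKO library 1 (-1.49) and the U937 value was 0.10 without sgControl library 3. H2AC8 was at 0 reads in all 18 U937 libraries and at 0.038 to 1.04 CPM in the other lines, while H2AC14 and H2AC16 stayed at or below 0.442 CPM.

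H2B was the class with the most members and the most calls. H2BC12 (chr6:27146361-27146855, minus strand, 495 bases) had the highest level per length of any member, 39.3 CPM per kb averaged over groups. In OCI-AML-3 it was at 15.2 and 14.5 CPM in sgControl and 72.2 and 83.2 CPM in DKO (2.40 ± 0.08, edgeR, adjusted p = 8.9e-31). In MOLM-13 it was at 12.4 and 13.5 CPM in sgControl and 64.1 and 68.0 CPM in SKO (2.36 ± 0.06, edgeR, adjusted p = 1.7e-24). The 2 changes were of like size. Under TPA it was at 9.36, 10.1 and 9.71 CPM in U937 sgControl, 6.98, 7.90 and 7.14 CPM in SKO and 31.8, 37.2 and 35.5 CPM in DKO. The 3 groups did not overlap, and DKO rose by 1.85 ± 0.08 and SKO fell by 0.40 ± 0.09. In untreated U937 the levels were 5.33, 4.77 and 3.68 CPM in sgControl, 3.14, 3.15 and 3.16 CPM in SKO and 6.25, 6.72 and 8.18 CPM in DKO. SKO lay below and DKO above every control library (-0.55 ± 0.15 and 0.61 ± 0.14). In THP-1 both knockout labels were above the control of 3.32, 3.57 and 2.84 CPM, at 7.26, 5.40 and 4.73 CPM in SKO (0.84 ± 0.16) and 5.60, 5.49 and 6.35 CPM in DKO (0.94 ± 0.16).

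H2BC21 (chr1:149884459-149886652, minus strand, 2194 bases of exon) is the H2B gene beside H2AC20. In TPA-treated U937 it was at 1.40, 1.92 and 2.07 CPM in sgControl, 2.10, 2.24 and 1.93 CPM in SKO and 16.5, 17.6 and 18 CPM in DKO (3.28 ± 0.14, edgeR, adjusted p = 4.6e-18). The SKO libraries overlapped the control (0.22 ± 0.16, edgeR, adjusted p = 0.26). In THP-1 it was at 0.750, 1.03 and 1.67 CPM in sgControl, 2.33, 2.54 and 2.38 CPM in SKO and 7.73, 7.07 and 6.42 CPM in DKO. The groups were ordered sgControl, SKO and DKO with no overlap, at 1.09 ± 0.22 and 2.73 ± 0.21. In OCI-AML-3 it went from 2.7 and 2.19 CPM to 17.6 and 13.3 CPM (2.67 ± 0.14), and in MOLM-13 from 0.858 and 0.965 CPM to 4.01 and 4.13 CPM (2.16 ± 0.23). In untreated U937 the control was spread over 0.333, 1.75 and 0.571 CPM and DKO was at 2.30, 2.41 and 1.86 CPM (1.29 ± 0.37).

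H2BC5 (chr6:26158146-26171349, plus strand, 871 bases of exon) was at 1.01, 0.890 and 0.876 CPM in TPA-treated U937 sgControl, 0.990, 1.17 and 1.30 CPM in SKO and 11.9, 11.3 and 12.1 CPM in DKO. Only the DKO libraries were apart from the control in this line under TPA (3.67 ± 0.16, edgeR, adjusted p = 2e-17). In OCI-AML-3 it was at 3.90 and 4.10 CPM in sgControl and 24.7 and 24.2 CPM in DKO (2.62 ± 0.11). In MOLM-13 it was at 1.29 and 1.53 CPM and then 6.50 and 5.85 CPM in SKO (2.13 ± 0.19). The THP-1 DKO libraries, at 2.83, 2.90 and 2.5 CPM, were likewise all above the control, at 0.825, 0.532 and 1.02 CPM (1.89 ± 0.29). H2BC4 (chr6:26114873-26123926, minus strand) rose from 0.772, 0.469 and 0.637 CPM to 5.29, 5.71 and 5.84 CPM in TPA-treated U937 DKO (3.17 ± 0.25) and from 1.09 and 0.893 CPM to 6.0 and 6.69 CPM in OCI-AML-3 DKO (2.68 ± 0.20). It also rose in MOLM-13 SKO (1.61 ± 0.22) and did not pass in THP-1 DKO (1.12 ± 0.57, but 1.73 and past the threshold without sgControl library 1) or untreated U937 DKO (0.03 ± 0.44, and -0.12 to -0.01 without sgControl library 1 or 3 or DKO library 3).

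**Figure D3:**
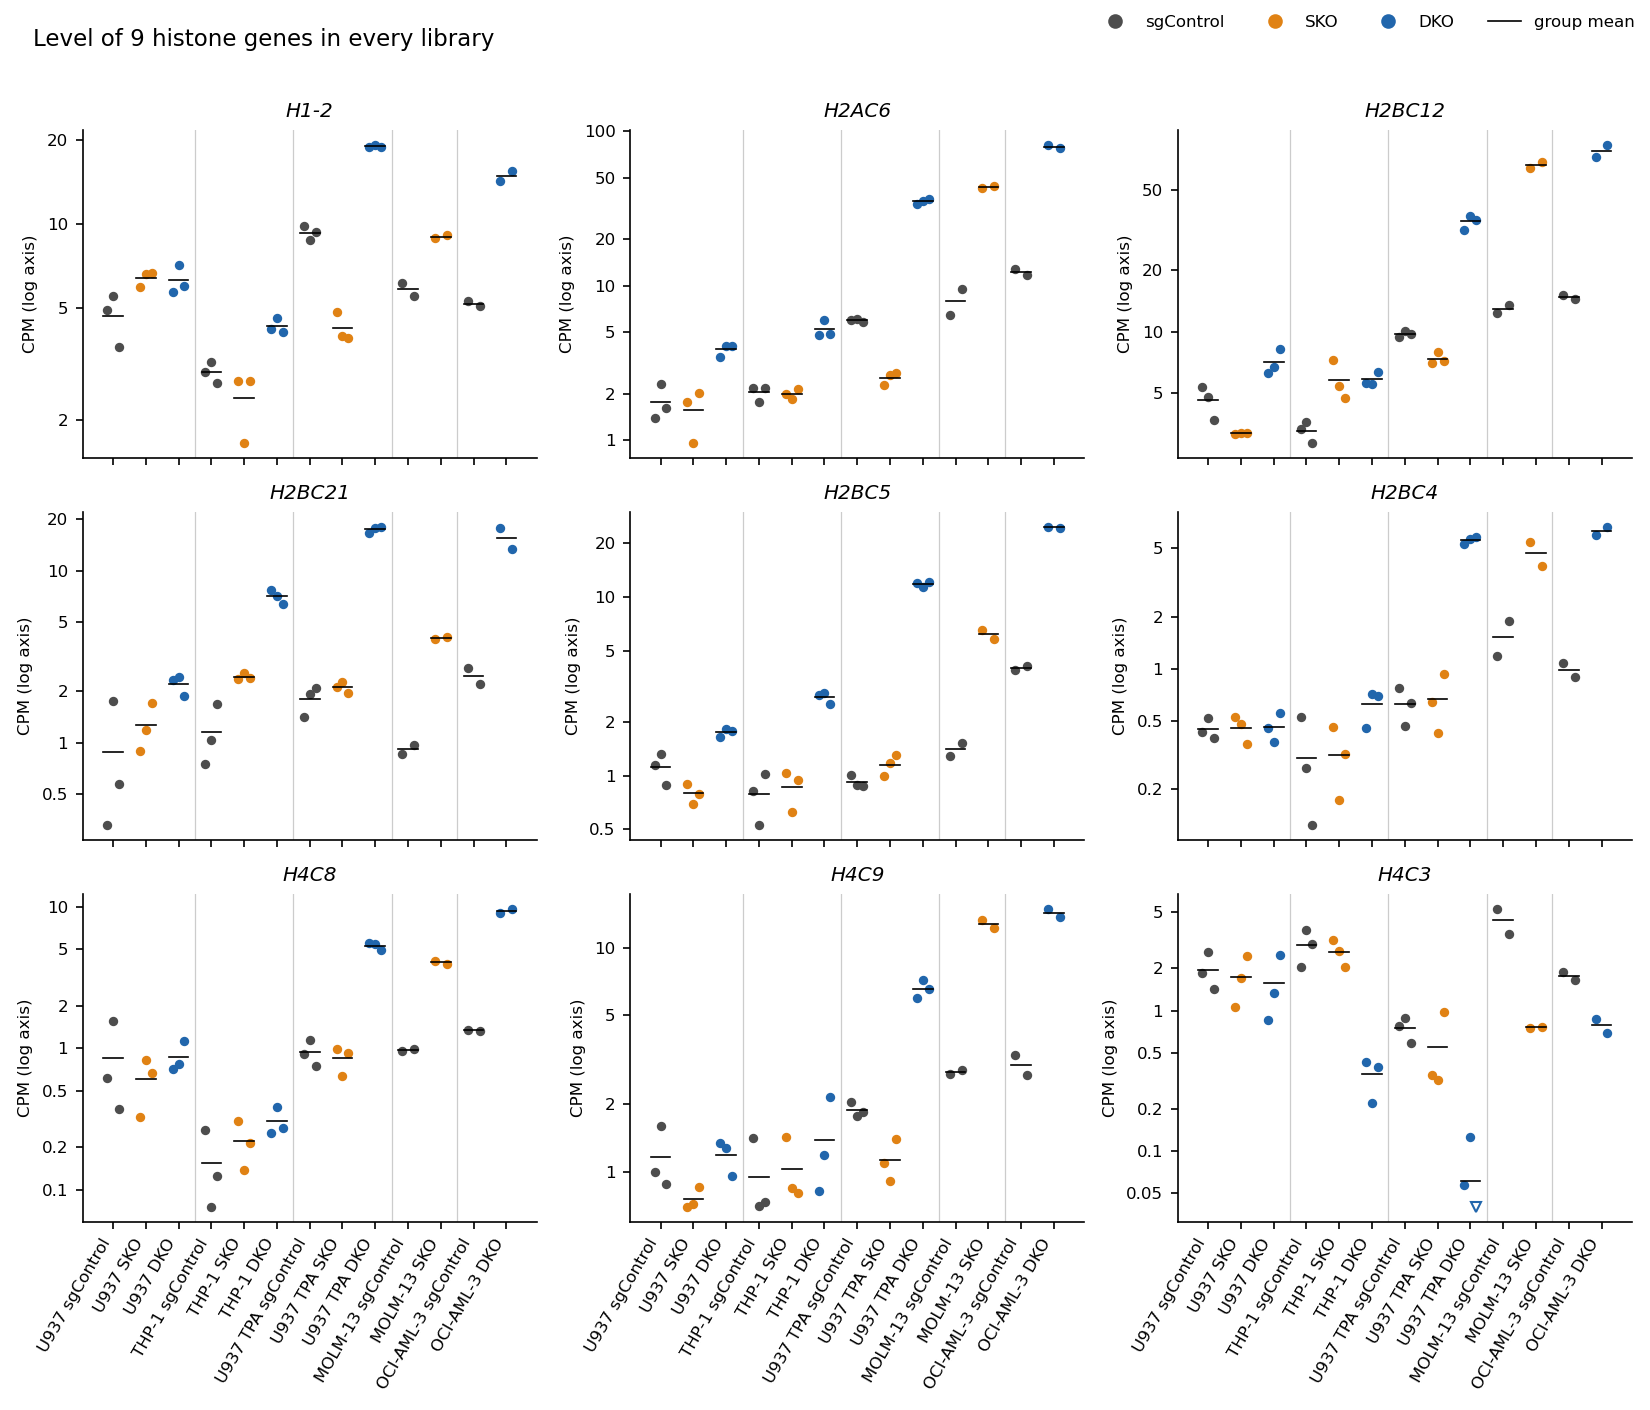
CPM on log axes of 9 members (1 panel each) in every library, by cell line and label. H1-2, H2AC6, H2BC12, H2BC21, H2BC5, H2BC4, H4C8 and H4C9 are highest in DKO- or SKO-labelled libraries, H4C3 is lowest in TPA-treated U937 DKO, and an open triangle marks a library with 0 reads.

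Other H2B genes were lower in level. H2BC15 was at 0.428, 0.496 and 0.457 CPM in untreated U937 sgControl and 1.76, 2.30 and 2.33 CPM in DKO (2.20 ± 0.32), the highest change of the members that rose there. It also rose in MOLM-13 SKO (1.12 ± 0.18) and OCI-AML-3 DKO (1.79 ± 0.18), and its call in THP-1 DKO (1.30 ± 0.45) was lost without sgControl library 1 or DKO library 1. H2BC11 rose in OCI-AML-3 DKO (2.04 ± 0.20), TPA-treated U937 DKO (1.90 ± 0.25) and MOLM-13 SKO (1.24 ± 0.30). H2BC8 was at 0 reads in 16 of the 18 U937 libraries. In THP-1 it went from 0.488, 0.323 and 0.125 CPM to 0.80, 0.966 and 1.32 CPM in DKO (1.81 ± 0.47). H2BC18 was at 0.571, 1.32 and 0.742 CPM in untreated U937 sgControl and fell in SKO, at 0.0998, 0.320 and 0.243 CPM (-1.99 ± 0.50), and DKO, at 0.199, 0.268 and 0.175 CPM (-2.02 ± 0.51). In THP-1 DKO it rose instead, from 0.525, 0.570 and 0.397 CPM to 1.53, 1.55 and 1.62 CPM (1.75 ± 0.38). H2BC18 shares 5.5% of its exon bases with FCGR1A, a myeloid Fc receptor gene, and reads that overlap several genes were not counted in the untreated table.

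H2BC9 and H2BC13 fell. H2BC9 was at 2.91, 3.12 and 4.47 CPM in THP-1 sgControl, 1.60, 1.61 and 1.33 CPM in SKO and 1.55, 1.33 and 1.10 CPM in DKO. Both knockout labels lay below every control library, at -1.20 ± 0.23 and -1.29 ± 0.23 (edgeR, adjusted p = 5.7e-05 and 1.7e-05), and SKO and DKO did not differ past the threshold (-0.09 ± 0.24, and 0.02 without DKO library 3). H2BC13 fell in TPA-treated U937 DKO, from 0.338, 0.398 and 0.637 CPM to 0.0575, 0.125 and 0.0885 CPM (-2.29 ± 0.70), and in OCI-AML-3 DKO, from 0.728 and 1.17 CPM to 0.477 and 0.452 CPM (-1.02 ± 0.40). Its OCI-AML-3 call was lost without sgControl library 2, DKO library 1 or DKO library 2. H2BC6, H2BC7, H2BC14 and H2BC17 were at or below 0.755 CPM in every library, and the calls of H2BC6 and H2BC7 in MOLM-13 SKO (2.55 ± 0.70 and 1.59 ± 0.59) and of H2BC17 in OCI-AML-3 DKO (1.56 ± 0.53) were lost without sgControl library 2 of their line. The H2BC7 call was also lost with DESeq2 and without sgControl library 1 or SKO library 2. The H2BC17 call was also lost with DESeq2 and without any other single library of its line.

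H3 carries the lysine that SUV39H1 and SUV39H2 methylate. Among the H3 genes, H3C10 (chr6:27810064-27811300, plus strand, 1237 bases) had the highest level per length, 1.25 CPM per kb. In MOLM-13 it was at 1.39 and 1.65 CPM in sgControl and 5.99 and 4.68 CPM in SKO (1.81 ± 0.20, edgeR, adjusted p = 3.6e-09). In OCI-AML-3 it went from 1.03 and 1.06 CPM to 4.81 and 4.80 CPM in DKO (2.21 ± 0.21, edgeR, adjusted p = 5.6e-13). Both were clear of their controls. In TPA-treated U937 DKO it was at 2.24, 2.03 and 1.98 CPM against 0.917, 0.937 and 0.849 CPM (1.21 ± 0.27). It did not pass in THP-1 DKO (0.82 ± 0.76, and -0.19 without DKO library 3) or untreated U937 DKO (0.55 ± 0.37).

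The other H3 genes were near the counting limit. H3C6 rose in OCI-AML-3 DKO from 0.0428 and 0 CPM to 0.228 and 0.329 CPM, a call lost without sgControl library 2 or DKO library 1, and was at 1.16 and 0.884 CPM in MOLM-13 sgControl and 0.749 and 0.448 CPM in SKO (-0.76 ± 0.41, edgeR, adjusted p = 0.11). H3C3 was at 0 reads in the 8 MOLM-13 and OCI-AML-3 libraries and fell in untreated U937 DKO from 0.499, 0.661 and 0.742 CPM to 0.0568, 0.375 and 0.0582 CPM (-1.91 ± 0.58). H3C8 was seen chiefly in THP-1 sgControl, at 0.713, 0.190 and 0.418 CPM, and at 0.0914 CPM or less elsewhere. H3C11 fell in OCI-AML-3 DKO, from 0.30 and 0.298 CPM to 0.0415 and 0.123 CPM (-1.81 ± 0.73), and the call was lost without any 1 of the 4 libraries. H3C2, H3C7, H3C12 and H3C13 stayed at or below 0.732 CPM. H3C12 shares 40.3% of its exon bases with H2AC17, so part of its reads may have been left out of the counts.

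H4 forms the core tetramer with H3. H4C8 (chr6:26277609-26285638, minus strand, 2163 bases of exon) was at 1.35 and 1.32 CPM in OCI-AML-3 sgControl and 9.01 and 9.67 CPM in DKO (2.82 ± 0.17, edgeR, adjusted p = 4.4e-20). In TPA-treated U937 it went from 0.917, 1.15 and 0.743 CPM to 5.52, 5.43 and 4.93 CPM in DKO (2.5 ± 0.22), and in MOLM-13 from 0.959 and 0.985 CPM to 4.12 and 3.96 CPM in SKO (2.06 ± 0.23). The groups were apart in all 3. H4C9 (chr6:27138588-27139881, plus strand, 1294 bases) was at 2.73 and 2.85 CPM in MOLM-13 sgControl and 13.4 and 12.3 CPM in SKO (2.21 ± 0.13), and at 3.32 and 2.7 CPM in OCI-AML-3 sgControl and 15 and 13.7 CPM in DKO (2.26 ± 0.13). Under TPA the U937 libraries were at 2.05, 1.78 and 1.86 CPM in sgControl, 1.09, 0.907 and 1.40 CPM in SKO and 6.01, 7.21 and 6.55 CPM in DKO. SKO was below and DKO above the control (-0.73 ± 0.21 and 1.80 ± 0.18). Neither gene passed in THP-1 DKO (1.06 ± 0.70 and 0.66 ± 0.37), but H4C9 did without sgControl library 1 (1.04) or DKO library 1 (0.92).

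H4C3 (chr6:26103933-26104337, plus strand, 405 bases) went down where these 2 went up. In MOLM-13 it was at 5.32 and 3.5 CPM in sgControl and 0.749 and 0.771 CPM in SKO (-2.51 ± 0.26, edgeR, adjusted p = 5.7e-10). In THP-1 it was at 2.06, 3.76 and 2.97 CPM in sgControl, 3.16, 2.66 and 2.04 CPM in SKO and 0.434, 0.221 and 0.400 CPM in DKO. SKO overlapped the control and DKO did not (-2.93 ± 0.31, edgeR, adjusted p = 1e-09). In TPA-treated U937 it was at 0.772, 0.890 and 0.584 CPM in sgControl and at 0.0575, 0.125 and 0 CPM in DKO (-3.57 ± 0.69, edgeR, adjusted p = 4.9e-05). In OCI-AML-3 it went from 1.88 and 1.66 CPM to 0.872 and 0.698 CPM (-1.16 ± 0.30), a call lost without DKO library 2. Untreated U937 DKO overlapped its control at 0.852, 1.34 and 2.5 CPM (-0.34 ± 0.32, edgeR, adjusted p = 0.35), and the value was -0.84 and past the threshold without DKO library 3.

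H4C14 rose in both THP-1 labels, from 0.338, 0.342 and 0.292 CPM in sgControl to 0.763, 0.830 and 1.40 CPM in SKO (1.62 ± 0.39) and 1.69, 0.884 and 1.5 CPM in DKO (2.17 ± 0.39). All 6 knockout-labelled libraries were above the control. It shares 9.2% of its exon bases with H3C14. H4C14 also rose in OCI-AML-3 DKO from 0.0856 and 0.0425 CPM to 0.581 and 0.657 CPM (3.23 ± 0.66), and was at 0.281 CPM or less in all U937 libraries. H4C12 rose in MOLM-13 SKO (1.56 ± 0.51), OCI-AML-3 DKO (1.89 ± 0.53) and TPA-treated U937 DKO (3.49 ± 0.76) from at most 0.30 CPM in the controls. The MOLM-13 call was lost without sgControl library 1 or SKO library 1 and the OCI-AML-3 call without sgControl library 2 or either DKO library. H4C5 was at 0.413, 0.228 and 0.125 CPM in THP-1 sgControl and 0.0457, 0 and 0 CPM in DKO (-3.67 ± 1.22), a call lost without sgControl library 1, DKO library 2 or DKO library 3. H4C1, H4C2, H4C6 and H4C11 were at or below 0.519 CPM in every library.

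The single knockout label gave few calls outside MOLM-13. In untreated U937 SKO, 1 of 23 tested members rose (4.35%, against 30.7% of all genes) and 3 fell (13%, against 31.2%). The count that rose was 0 without sgControl library 3 and 2 without sgControl library 2, and the count that fell was 6 without sgControl library 3 and 5 without SKO library 3. In THP-1 SKO, H4C14, H2BC21 and H2BC12 rose (13%, against 20.6%) and H2BC9 fell (4.35%, against 22.8%), and all 4 calls held in every alternative run. The count that fell was 3 without SKO library 2 and 2 without sgControl library 2, SKO library 1 or SKO library 3. In TPA-treated U937 SKO, 0 of 20 rose (against 25.8%) and H2AC6, H1-2, H2BC11, H4C9 and H2BC12 fell (25.0%, against 24.6%), of which H2BC11 lost its call without sgControl library 2 or SKO library 2. With edgeR 5 members had an unadjusted p under 0.05, all 5 lower, and DESeq2 also called 0 higher.

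The 2 labels were also set against each other within a line. In TPA-treated U937, 12 of 20 tested members were higher in DKO than in SKO (60%, against 31.3%) and H4C3 and H2BC13 were lower (10.0%, against 32.4%), the latter not without SKO library 2, DKO library 1 or DKO library 3. H2AC6 differed by 3.80 ± 0.10 on the log2 scale and H1-2 by 2.16 ± 0.10 (edgeR, adjusted p = 2.7e-22 and 1.9e-16). In THP-1, 6 of 23 were higher in DKO (26.1%, against 25.3%) and 2 lower (8.70%, against 28.5%), with H2BC18 at 2.30 ± 0.39 and H4C3 at -2.78 ± 0.31. The 2 lower became 1 without SKO library 3 or DKO library 1. In untreated U937, 4 of 23 were higher in DKO (17.4%, against 24.1%) and 5 lower (21.7%, against 24.9%). H2BC15 differed by 2.06 ± 0.32 and H2AC12 by -3.57 ± 1.01 (edgeR, adjusted p = 3.7e-06 and 0.0044). The count of 5 lower became 3 without SKO library 2.

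TPA-treated and untreated U937 were compared within each label. In sgControl U937, 6 of 26 tested members were higher with TPA (23.1%, against 34.6%) and 8 lower (30.8%, against 33.2%), and the 8 became 5 without untreated library 2. H2AC6 was higher by 1.76 ± 0.16, H2BC12 by 1.08 ± 0.11 and H1-2 by 0.99 ± 0.12, while H1-4 was lower (-3.37 ± 0.64). In SKO, 6 were higher (23.1%, against 31.5%) and 5 lower (19.2%, against 31.4%). In DKO, 14 were higher (53.8%, against 36.9%) and 1, H4C3, was lower (3.85%, against 36.2%), a count of 3 without untreated DKO library 3 and of 2 without untreated library 2 or any TPA-treated DKO library. H2BC4 rose by 3.64 ± 0.29, H2AC6 by 3.23 ± 0.13 and H2BC21 by 3.02 ± 0.23 (edgeR, adjusted p = 1.1e-13, 3.3e-22 and 2.4e-14).

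The difference between the DKO effects with and without TPA was tested directly in 1 fit of 18 U937 libraries. It passed for 17 of 26 members: 15 had the larger log2 fold change under TPA (57.7%, against 21.7%) and 2, H2BC15 and H4C3, the smaller (7.69%, against 27.8%). H2BC5 differed by 3.05 ± 0.27, H2BC12 by 1.27 ± 0.16 and H2AC6 by 1.47 ± 0.22 (edgeR, adjusted p = 7.6e-12, 1.2e-08 and 4e-07). The SKO effects differed for 5 members, with 2 larger (7.69%, against 19.6%) and 3 smaller (11.5%, against 18.1%) under TPA. H1-2 (-1.55 ± 0.18) and H2AC6 (-1.03 ± 0.25) were among the smaller ones, and the count of larger ones was 0 without untreated sgControl library 2 and 1 without untreated sgControl library 1, untreated SKO library 2, TPA-treated sgControl library 3 or TPA-treated SKO library 3.

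The untreated lines were compared in the same way. The DKO effect differed between U937 and THP-1 for 6 of 27 members. The effect on 1 member, H4C3, was higher in U937 (3.70%, against 29.7%), by 2.63 ± 0.50, a count of 2 without THP-1 sgControl library 1. On 5 members it was lower (18.5%, against 24.7%), among them H2BC18 (-3.73 ± 0.62) and H2AC11 (-2.93 ± 0.56). The SKO effect differed for 2 of 27, with 1 higher (3.70%, against 24.1%), H1-2, and 1 lower (3.70%, against 22.7%), H2BC12, counts that reached 3 without U937 sgControl library 2 and without THP-1 sgControl library 3. In sgControl cells, THP-1 was higher than U937 for 5 of 27 members (18.5%, against 42.3%) and lower for 10 (37.0%, against 33.9%), where all genes had a median of 0.13. H2BC9 was higher in THP-1 by 3.23 ± 0.32 on the log2 scale, at 2.91 to 4.47 CPM against 0.238 to 0.566 CPM. H4C8 was lower by 2.45 ± 0.57, at 0.076 to 0.263 CPM against 0.371 to 1.56 CPM.

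The members that rose were also described by length and kind of end. Rows over 600 bases of exon, a length chosen after the values were seen, were compared with shorter ones. Of all genes tested, 24.8% to 34.7% of long rows rose and 26.4% to 37.0% fell in these 4 comparisons, and 14.1% to 31.0% of short rows rose and 6.18% to 22% fell. In OCI-AML-3 DKO, 15 of 22 tested long member rows rose and 0 fell, against 4 up and 4 down of 14 short rows. In MOLM-13 SKO the counts were 15 up and 1 down of 21 long rows and 3 up and 1 down of 8 short ones. In TPA-treated U937 DKO, 11 of 12 long rows rose and 0 fell, against 3 up and 2 down of 8 short rows, and in THP-1 DKO 9 of 18 long rows rose and 2 fell, against 1 up and 2 down of 5 short rows. H2BC12, at 495 bases, is a short row that rose in all 4. By kind of end, 12 of 16 tested members with a stem-loop and a longer tail rose in OCI-AML-3 DKO. The counts were 12 of 15 in MOLM-13 SKO, 8 of 9 in TPA-treated U937 DKO and 7 of 14 in THP-1 DKO. Of this kind H4C5 and H2BC9 fell in these 4 comparisons, both in THP-1 DKO. Where the annotated transcript held no stem-loop, 5 of 14, 4 of 10, 4 of 7 and 2 of 6 rose. Of these H4C3 fell in all 4, H2AC20 in OCI-AML-3 and THP-1, H3C11 in OCI-AML-3 and H1-4 in MOLM-13. The shares of all genes that rose were 24.3%, 31.8%, 34.1% and 31.9%. Among 6 members with a stem-loop nearer the end, H2BC5 rose in all 4 and H2AC13 in all but THP-1. H2BC13 fell in OCI-AML-3 and TPA-treated U937, and H2AC8, H4C2 and H4C11 had no call. Untreated U937 DKO lies outside these 4 comparisons. There H2BC18 (-2.02), H2AC11 (-1.66), H2BC9 (-1.68) and H4C5 (-1.93), all with a stem-loop and a longer tail, fell. H2BC21 (1.29), H2AC6 (1.12) and H2BC15 (2.2), of the same kind, rose. The H2BC9 call was lost without sgControl library 2, and the H4C5 call without sgControl library 2 or DKO library 2 or 3. H1-4, also a long row, fell there too (-3.03). Longer rows also collect more reads and so pass the test more easily, and its part in these counts was not tested. The sequences of H2BC21, H2AC6, H3C10 and H4C8 printed above are 4 of the long kind that rose in OCI-AML-3, MOLM-13 and TPA-treated U937. Of members with no stem-loop in the annotated transcript, H4C3 fell and H2BC12 and H1-2 rose in all 4 comparisons. The annotated transcripts of H2BC12 and H1-2, of 381 and 642 bases, are shorter than their counted rows of 495 and 731 bases. The same holds for H2AC20 (390 against 494 bases), H3C11 (411 against 502) and H1-4 (754 against 787), which fell. A stem-loop may therefore be missing from all of these by annotation only. For H4C3 the annotated transcript, of 435 bases, is longer than its counted row of 405 bases.

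**Figure D4:**
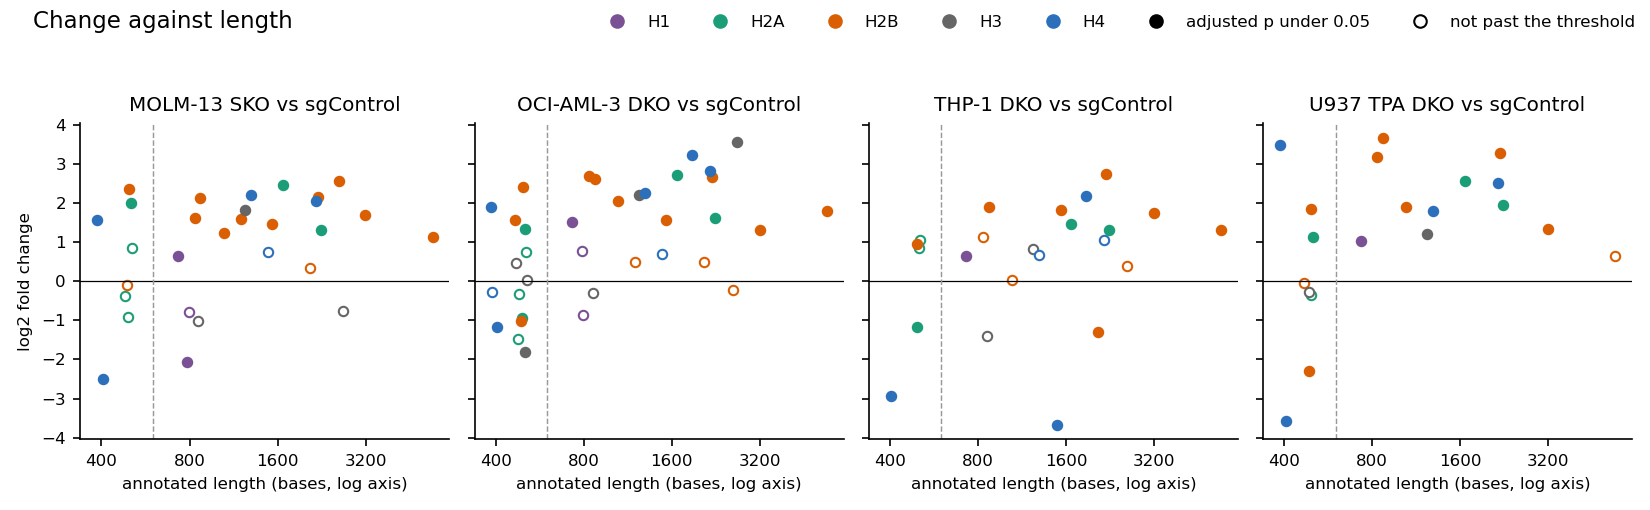
log2 fold change (vertical axis) against exon length in bases (horizontal axis) of the tested members in 4 comparisons, with a dashed line at 600 bases. Points to the right of the line lie mostly above 0, and points to the left lie on both sides.

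Neighbouring genes transcribed away from each other across a short gap did not always move together. H2BC21 and H2AC20 start 265 bases apart on opposite strands. H2BC21 rose and H2AC20 fell in OCI-AML-3 DKO (2.67 and -0.95) and in THP-1 DKO (2.73 and -1.17), and H2BC13 and H2AC13, 267 bases apart, also moved in opposite directions in OCI-AML-3 DKO (-1.02 and 1.34) and in TPA-treated U937 DKO (-2.29 and 1.12). H2BC4 and H2AC6, 218 bases apart, rose together in MOLM-13 SKO (1.61 and 2.45), OCI-AML-3 DKO (2.68 and 2.71) and TPA-treated U937 DKO (3.17 and 2.57). H2BC11 and H2AC11, 246 bases apart, rose together in the same 3 comparisons (1.24 and 1.31, 2.04 and 1.62, 1.90 and 1.94). The counting used no strand in the untreated table, so antisense reads over a gene were counted with it there.

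The 250 bases before the start of H2AC20, which lie in its gap to H2BC21, are shown because this pair moved apart (RefSeq, GRCh38.p14, chr1:149886668-149886917, plus strand). Capitals mark TATAAA (the TATA box), the CCAAT box and the octamer ATTTGCAT on either strand. The same window of H2BC12 (chr6:27146856-27147105, minus strand) is beside it, since this gene rose in all 4 comparisons.
H2AC20 promoter: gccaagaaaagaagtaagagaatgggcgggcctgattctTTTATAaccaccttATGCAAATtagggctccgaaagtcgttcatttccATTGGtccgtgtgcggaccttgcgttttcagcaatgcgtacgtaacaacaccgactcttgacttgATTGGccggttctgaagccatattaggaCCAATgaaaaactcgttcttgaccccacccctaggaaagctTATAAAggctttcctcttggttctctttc
H2BC12 promoter: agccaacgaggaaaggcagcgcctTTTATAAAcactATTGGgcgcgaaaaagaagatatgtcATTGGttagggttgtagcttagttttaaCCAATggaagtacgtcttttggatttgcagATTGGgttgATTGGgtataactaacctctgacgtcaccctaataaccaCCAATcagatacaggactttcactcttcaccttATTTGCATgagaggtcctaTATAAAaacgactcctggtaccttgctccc
Of 40 members with a RefSeq promoter, CCAAT stood in 34, against 32% of 35116 promoters, TATAAA in 26, against 10.7%, and ATTTGCAT in 17, against 1.63%. The octamer stood in 6 of 7 H2A and 11 of 14 H2B promoters and in 0 of the H1, H3 and H4 promoters, and CCAAT in 2 of 8 H4 promoters. In H2BC12 a TATAAA on each strand overlaps. Divergent pairs share these bases. The H2AC20 window also lies before H2BC21, which rose in all 4 comparisons, and the H2BC12 window lies before H2AC12. In untreated U937 DKO, H2BC12 rose (0.61) and H2AC12, at the limit of a few reads, fell (-4.45). H2AC20, which fell, and H2BC12, which rose, both hold each of these motifs in the windows shown. The classes without the octamer include members that fell, such as H4C3 and H1-4, and members that rose, such as H1-2 and H3C10. Whether the motifs go with the direction of change was not tested.

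Genes of related function were read against the share of all genes that fell, which was 32.2% in MOLM-13 SKO, 25.6% in OCI-AML-3 DKO, 36.5% in TPA-treated U937 DKO, 33.7% in THP-1 DKO and 34.5% in untreated U937 DKO. Of 30 genes of S phase entry and replication, all 30 fell in MOLM-13 SKO, in OCI-AML-3 DKO and in TPA-treated U937 DKO, and 28 fell in THP-1 DKO and in untreated U937 DKO. MCM10, a replication initiation factor, had log2 fold changes of -1.84, -1.45, -2.00 and -2.12 in MOLM-13 SKO, OCI-AML-3 DKO, TPA-treated U937 DKO and THP-1 DKO. Their summed level went from 5396 to 2017 CPM in MOLM-13, from 4639 to 2278 CPM in OCI-AML-3, from 4135 to 1304 CPM in TPA-treated U937, from 4800 to 2641 CPM in THP-1 and from 6986 to 4846 CPM in untreated U937. The members' sum was higher without overlap in the first 4 of these and overlapped in the last. In TPA-treated U937 SKO, 14 of the 30 fell and 2 rose, and the members' sum was lower.

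Of 23 genes that transcribe or process histone mRNA, 16 fell in MOLM-13 SKO and 13 each in OCI-AML-3, TPA-treated U937 and THP-1 DKO, with 4, 4, 4 and 5 that rose. SLBP, which binds the stem-loop, had log2 fold changes of -0.73, -0.70, -0.80 and -0.46. Of 21 histone chaperones, 17 of 21 tested fell in MOLM-13 SKO, 16 of 21 in OCI-AML-3 DKO, 15 of 20 in TPA-treated U937 DKO and 19 of 21 in THP-1 DKO, led by CHAF1B in MOLM-13 (-1.62) and OCI-AML-3 (-1.5). Among 17 histone variant genes outside the clusters, 7 of 11 tested fell and 2 rose in MOLM-13 SKO, 6 of 12 fell and 3 rose in OCI-AML-3 DKO, 7 of 10 fell and 3 rose in TPA-treated U937 DKO and 9 of 13 fell and 3 rose in THP-1 DKO. CENPA, the centromere histone, fell in MOLM-13 SKO (-1.59) and OCI-AML-3 DKO (-1.42).

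Other RNAs without a poly(A) tail were followed as a measure of tail-less RNA in the libraries. The 37 listed RNAs summed to 43.6 CPM in MOLM-13 sgControl and 67.1 CPM in SKO, 33.3 and 44.5 CPM in OCI-AML-3 sgControl and DKO, 7.23 and 11.6 CPM in TPA-treated U937 sgControl and DKO, and 22.1 and 12.4 CPM in THP-1 sgControl and DKO. In untreated U937 they went from 27.5 to 62.4 CPM in DKO, where the members' sum overlapped its control. Few of these RNAs had enough reads to be tested, 5 in U937 and 8 in the other lines, and they did not move alike. RN7SL1, the signal recognition particle RNA, rose in untreated U937 DKO (1.54), TPA-treated U937 DKO (1.24), MOLM-13 SKO (0.77) and OCI-AML-3 DKO (0.42) and fell in THP-1 DKO (-0.94). SNORD17, a small nucleolar RNA, fell in the first 4 of these (-1.54, -2.04, -0.73 and -0.95). RMRP and SNORD3A fell in untreated U937 DKO (-1.99 and -2.34), RMRP rose in OCI-AML-3 DKO (0.72), and in THP-1 DKO RN7SL3 fell (-1.78) and RNU6ATAC rose (2.44). The summed level of the myeloid markers was higher in MOLM-13 SKO, from 2171 to 9899 CPM, and in OCI-AML-3 DKO, from 1439 to 2530 CPM. It was also higher in TPA-treated U937 DKO, from 1418 to 1841 CPM, and in THP-1 DKO, from 1536 to 2067 CPM. The single markers did not all move with the sum. In TPA-treated U937 DKO, LYZ (-1.96), MPO (-1.28), CEBPA (-0.98) and CD33 (-0.48) fell, while the other listed markers rose. In untreated U937 the marker sum was 744 CPM in sgControl, 1522 CPM in SKO and 1623 CPM in DKO, where the members' sums overlapped. In THP-1 SKO it was 1707 CPM, and the members' sums overlapped too. In TPA-treated U937 SKO it was 1664 CPM against 1418 CPM, where the members' sum was lower. The part of S phase genes, tail-less RNA and myeloid markers in the members' changes was not tested.

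**Figure D5:**
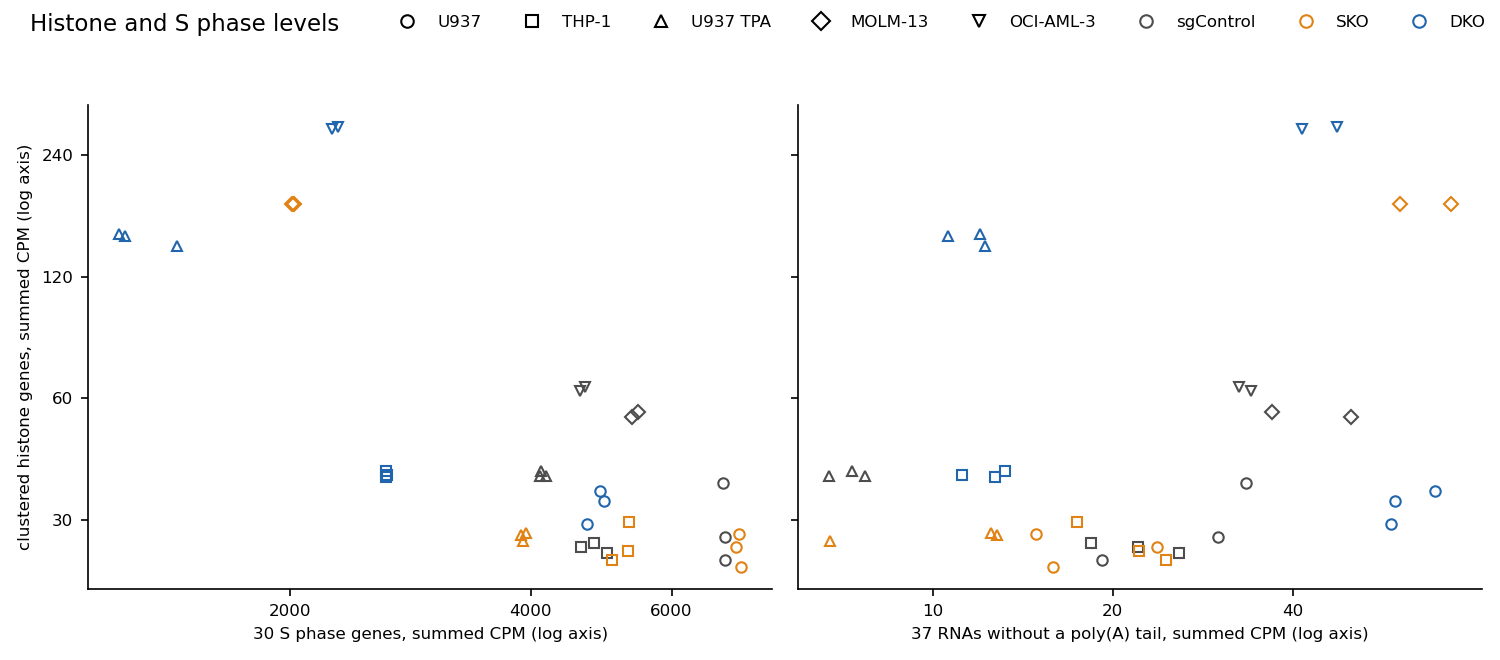
Summed CPM of the members (vertical axes) against the summed CPM of 30 S phase genes and of 37 RNAs without a poly(A) tail (horizontal axes) in 35 libraries, with the marker for the cell line and the colour for the label. The MOLM-13 SKO, OCI-AML-3 DKO and TPA-treated U937 DKO libraries combine the highest member sums, 143 to 282 CPM, with S phase sums of 1224 to 2300 CPM.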

How the data were processed

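The data are 2 deposited tables of raw whole-number counts, with 1 row per gene and 1 column per library. Per the submitters' processing notes, the tools included fastp 0.23.4, STAR 2.7.11b and Subread 2.0.6 and the build was hg38. For the table of untreated cells, per the file headers, the authors ran featureCounts on GENCODE 38 gene names, unstranded, dropping multi-mapping and multi-overlapping reads, which lowers counts of near-identical histone genes. The command for the other table is not given in the sources used here. edgeR 4.0.16 in R 4.3.3 was run on the counts (filterByExpr, TMM, quasi-likelihood test, Benjamini-Hochberg at 0.05) over all genes, in 1 fit per line and treatment and in fits of 18 libraries for differences between them. The steps were tested on simulated data. Replicates of a group differed by more than sampling noise in all 31 pairs (chi-square per gene 2.913 to 10.776). Alternatives were DESeq2 1.42.0 and its size factors, no filter, a replicate block and each library left out. The members, lists and tests were chosen with earlier results of these data known. Named genes were all H1 members, the 3 with the highest level per kb in each core class, and the highest and lowest change per class and comparison, and the text also names other members, chosen after their values were seen.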

Additional observations from a re-analysis of the deposited data

Results flagged for a closer look

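Differences between 2 effects were tested with interaction terms in edgeR's quasi-likelihood test, and the 4 contrasts below each had members past an adjusted p of 0.05. The DKO effect in U937 differed with and without TPA for 17 members, from H2AC11 (3.62 ± 0.80 larger under TPA on the log2 scale) to H4C3 (-3.22 ± 0.80). The SKO effect differed for 5 members, from H1-4 (2.72 ± 0.89) to H2BC9 (-2.58 ± 1.01), and the H1-4 call was lost without untreated sgControl library 2. The H2BC9 call was lost without a filter on low counts. It was also lost without any single SKO library, treated or untreated, and without most single sgControl libraries. The DKO effect in U937 minus that in THP-1 differed for 6 members, from H4C3 (2.63 ± 0.50) to H3C12 (-4.71 ± 1.97). H3C12 was at 0 reads in all 3 U937 DKO libraries, so that value depends on the prior count and is no bound. The H3C12 call was also lost without any single U937 DKO library. The SKO effect differed between the lines for 2 members, H1-2 (0.76 ± 0.24, lost without U937 sgControl library 3 or THP-1 SKO library 2) and H2BC12 (-1.38 ± 0.23).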

How the results depend on the processing

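Of 2385 values of single members under an alternative, 2188 kept direction and call, 186 lost the call, 5 gained it and 6 reversed, all 6 of members that had not passed. Of 152 counts of members called under other settings, 140 stayed within 1.5 times the reported count, as did 222 of 268 with 1 library left out. Without a filter on low counts, the members that fell numbered 13 in U937 DKO, 2 in THP-1 SKO, 7 in THP-1 DKO, 2 in OCI-AML-3 DKO and 3 in U937 DKO with TPA against without. On the same setting those higher numbered 1 for the SKO effect under TPA, 2 for the SKO effect in U937 minus THP-1 and 8 in THP-1 against U937. With DESeq2 as the test, those lower numbered 1 in THP-1 DKO against SKO, 1 in MOLM-13 SKO, 2 in OCI-AML-3 DKO and 2 for the SKO effect in U937 minus THP-1. With DESeq2 size factors the summed levels were 24.8 CPM in THP-1 sgControl, 41.6 in THP-1 DKO, 162 in TPA-treated U937 DKO, 52.3 and 181 in MOLM-13 sgControl and SKO and 61.8 in OCI-AML-3 sgControl. The cause of these moves was not tested, apart from the genes that a missing filter adds.

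With each library left out in turn, the counts that fell ran from 2 to 6 in U937 SKO, 3 to 6 in U937 DKO against SKO, 1 to 3 in THP-1 SKO, 1 to 2 in THP-1 DKO against SKO, 1 to 3 in TPA-treated U937 DKO against SKO, 1 to 2 in MOLM-13 SKO, 1 to 3 in OCI-AML-3 DKO, 5 to 9 for TPA in U937 sgControl, 1 to 3 for TPA in U937 DKO and 1 to 3 for the SKO effect in U937 minus THP-1. The counts that rose ran from 0 to 2 in U937 SKO, 0 to 3 for the SKO effect under TPA, 1 to 3 for the SKO effect and 1 to 2 for the DKO effect in U937 minus THP-1. The reversed log2 fold changes ran from -0.70 to 0.10 for H2AC20 in TPA-treated U937 DKO, -0.12 to 0.16 for H2BC4 in U937 DKO, -0.23 to 0.02 for H2BC9 in THP-1 DKO against SKO and -0.19 to 1.47 for H3C10 in THP-1 DKO. With 1 library left in a group of MOLM-13 or OCI-AML-3, it is assumed to vary like the other group. The replicate number as a block gave 18 higher and 2 lower in MOLM-13, 19 and 4 in OCI-AML-3, 14 and 2 in TPA-treated U937 DKO and 10 and 4 in THP-1 DKO, as without it, and the same-numbered libraries shared no more than a number. The block moved no count by over 1.5 times. Members with few reads, most of H3 and H4, limit what could be detected.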
